A study of Homo sapiens with 4 samples.

Results

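The genes described here are 10 genes of the autophagy machinery and its cargo receptors, taken by name from the 59050 genes that the deposited counts hold: MAP1LC3B, GABARAPL1, GABARAPL2, SQSTM1, ULK1, BECN1, ATG5, ATG7, ATG9A and WIPI1. All 10 were found and all 10 passed the filter on low counts. They were measured in RCC4 cells, an established clear cell renal carcinoma line, that carried either a doxycycline-inducible hairpin against PML (shPML) or a scrambled hairpin in the same vector (shCTRL). Every library, control included, came from transduced and puromycin-selected bulk populations given 100 ng/ml of doxycycline over 96 h. There were 2 shCTRL and 2 shPML libraries, 1 of each in each of 2 experiments with independent lentiviral infections, called experiments 1 and 2 after the replicate numbers of the samples.

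Autophagy delivers cytoplasmic material to the lysosome inside a double-membrane vesicle, the autophagosome. The ULK1 kinase starts the process, the lipid kinase complex around Beclin 1 (BECN1) marks the growing membrane, ATG9A vesicles seed it, and WIPI proteins read the lipid mark. ATG7 and ATG5 serve the conjugation reactions that attach ATG8 proteins (here MAP1LC3B, GABARAPL1 and GABARAPL2) to the membrane, and receptors such as SQSTM1 (p62) tether cargo to those ATG8 proteins. SQSTM1 and lipid-bound LC3 are themselves degraded in the lysosome, and the RNA level says nothing about that turnover. Senescent cells, which the study asked about after PML knockdown, often have an enlarged lysosomal compartment.

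Between 27781193 and 69870617 reads were counted per library. PML itself was at 93.1 CPM (the read count of a gene relative to the size of its library, with library sizes scaled by TMM) in shCTRL and 54.9 CPM in shPML of experiment 1, and at 136 and 87.6 CPM in experiment 2. Its log2 fold change was -0.69 (SE, the standard error of the fit, 0.30; edgeR adjusted p = 0.32 without the block). It was -0.70 (SE 0.11, adjusted p = 4.2e-07) in the edgeR fit that takes the experiment as a block. The 7 renal and clear cell carcinoma markers examined, PAX8 and CA9 among them, were at 1 CPM or more in every library. Of the 8 markers of other cell types, PTPRC (leukocytes) was at 12.6 CPM and PECAM1 (endothelium) at 4.11 CPM in shPML replicate 2, and neither exceeded 0.0976 CPM in the other libraries. The summed level of those 8 markers was 14.5 and 16.3 CPM in shCTRL and 13.2 and 28.7 CPM in shPML. COL1A1 (fibroblasts) was at 11.3 and 16.3 CPM in shCTRL and at 9.19 and 12.0 CPM in shPML. ALB (hepatocytes) was at 3.18 CPM in shCTRL and 3.78 CPM in shPML of experiment 1 and at 0 in both libraries of experiment 2. CD3E was at 0 in every library, and CD68, CDH5 and COL3A1 were under 0.06 CPM. Results that rest on shPML replicate 2 are given with the value of experiment 1, which does not use that library but whose libraries both hold the ALB reads. In bulk RNA, fewer cells of a type and less RNA per cell cannot be told apart.

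Most of these autophagy genes had small fitted differences between shPML and shCTRL, where PML RNA was still at 0.59 and 0.64 times the control. ULK1 and ATG7 were higher in shPML in both experiments and were called higher when the experiment was taken as a block, at 1.57 and 1.46 times the control level. BECN1 was higher by a smaller step, SQSTM1 was slightly lower in both experiments, and MAP1LC3B, ATG5 and GABARAPL1 had fitted differences under 0.1 on the log2 scale. A gene was called where its adjusted p was below 0.05 and its log2 fold change beyond 0.5 in size. Without the block, edgeR called 0 of the 10 genes in either direction, against 0.0787% of all 16516 genes tested called higher and 0.333% called lower. That fit did not call PML, the target of the hairpin, either (edgeR adjusted p = 0.32). A gene not called there is therefore not shown to be unchanged. At an unadjusted p under 0.05 that fit held 1 of the 10 genes (ATG7), against 17.9% of all genes. DESeq2 without the block also called 0 of the 10, against 4.14% of genes higher and 6.44% lower. With the block, edgeR called 2 of the 10 higher (ULK1 and ATG7) and 0 lower, against 8.57% and 10.5% of all genes. DESeq2 with the block called the same 2 genes, against 1109 higher and 1386 lower of the 16516 genes fitted. At an adjusted p under 0.05 and any fold, the blocked edgeR fit also held BECN1, so 3 of the 10 genes were higher, against 14.5% of all genes.

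Over the 10 genes the median log2 fold change was 0.15 with and without the block, beside 0.01 without and 0.00423 with it over all genes tested. The median size of the blocked difference, whatever its sign, was 0.17 for the 10 genes and 0.32 for all genes. In both experiments 5 of the 10 genes were higher in shPML (ULK1, BECN1, ATG9A, ATG7 and GABARAPL2), against 37.2% of all genes, and 1 was lower (SQSTM1), against 37.1%. Both shPML libraries lay above both shCTRL libraries for 4 genes (BECN1, ATG9A, ATG7 and GABARAPL2), against 23.1% of all genes. They lay below both for 0 of the 10 genes, against 24.9%. ATG9A was counted as higher in both ways, although its log2 ratio in experiment 1 was only 0.02.

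**Figure D1:**
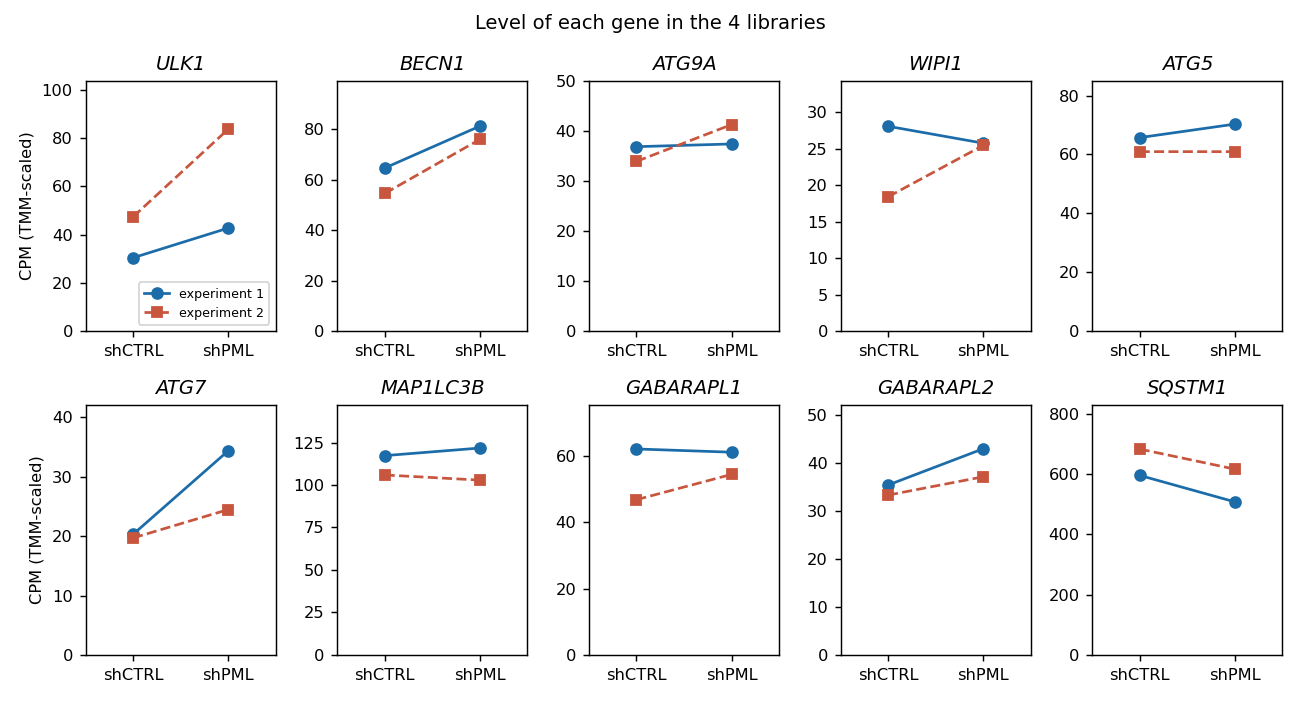
Level of each gene in CPM (linear axis from 0) in shCTRL and shPML, with a line for each experiment (circles and solid lines for experiment 1, squares and dashed lines for experiment 2). Each point is 1 library. ULK1 rose along both lines from different starting levels, WIPI1 differed between the controls (28.1 and 18.4 CPM) and met at about the same level in shPML, and MAP1LC3B stayed between 103 and 122 CPM.

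ULK1, the serine/threonine kinase that receives nutrient and energy signals and starts autophagosome formation, lies on chromosome 12 of GRCh38 from 131894622 to 131923150. It was at 30.4 CPM in shCTRL and 42.7 CPM in shPML of experiment 1, and at 47.3 and 83.6 CPM in experiment 2. The groups overlapped, since the control of experiment 2 was above the shPML library of experiment 1. Within the experiments, shPML was 1.40 and 1.77 times the control, log2 ratios of 0.49 (95% counting interval 0.40 to 0.58) and 0.82 (0.73 to 0.91). These intervals are exact binomial ones and cover counting error only. ULK1 differed by 0.65 with the block (SE 0.12, adjusted p = 1.2e-05 from edgeR) and by 0.70 without it (SE 0.38, adjusted p = 0.42). It differed more between experiments than between conditions: the experiments took 58.6% of the variance of its 4 log2 levels and the conditions 38.9%. The larger of the ratios came from the pair with shPML replicate 2, the library that held PTPRC and PECAM1 reads, and the part of those reads in the result was not tested. The ratio of 0.49 in experiment 1 does not use that library.

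The RefSeq promoter window of ULK1, 250 bases before to 50 bases after its start on the plus strand (chr12:131894372-131894671, GRCh38.p14), is shown because the gene was one of the pair called higher. Capitals mark the bases from the annotated start onward.
ULK1: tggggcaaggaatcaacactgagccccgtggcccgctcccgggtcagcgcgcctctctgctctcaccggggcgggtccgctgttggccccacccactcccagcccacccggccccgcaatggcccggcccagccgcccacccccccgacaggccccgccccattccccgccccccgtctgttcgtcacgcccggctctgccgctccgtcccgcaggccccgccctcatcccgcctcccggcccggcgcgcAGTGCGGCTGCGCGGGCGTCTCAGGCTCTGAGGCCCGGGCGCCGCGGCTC

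BECN1, the scaffold of the class III phosphatidylinositol 3-kinase complex, lies on chromosome 17 from 42810134 to 42824287 on the minus strand. Its level was 64.6 and 54.5 CPM in shCTRL of experiments 1 and 2, and 81.2 and 75.9 CPM in shPML. Both shPML libraries were above both controls. The ratio was 1.26 times in experiment 1 and 1.39 times in experiment 2, and the conditions took 82.5% of the variance of its log2 levels, the highest share among the 10 genes. With the block the log2 fold change was 0.40 (SE 0.11, adjusted p = 0.004 from edgeR), short of the fold threshold of 0.5. Without it the value was the same to 2 decimals (SE 0.16, adjusted p = 0.29). Of its exon bases, 23.5% are shared with CNTD1 on the opposite strand, which had at most 32 counts in any library.

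ATG9A, a lipid scramblase of the vesicles that seed the autophagosome membrane (chromosome 2, from 219219380 to 219229717), was at 36.9 and 33.9 CPM in shCTRL and at 37.4 and 41.3 CPM in shPML. The groups did not overlap, although the libraries of experiment 1 were close to each other. The log2 ratio was 0.02 (counting interval -0.06 to 0.11) in experiment 1 and 0.28 (0.17 to 0.40) in experiment 2. The blocked log2 fold change was 0.15 (SE 0.12, adjusted p = 0.40 from edgeR), which did not pass. Of the exon bases of ATG9A, 43.5% are shared with AC068946.2 on the same strand, so reads there could not be assigned to either gene by position alone.

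WIPI1, a reader of phosphatidylinositol 3-phosphate on the growing membrane (chromosome 17, from 68421281 to 68457496), went opposite ways in the experiments. It was at 28.1 CPM in shCTRL and 25.8 CPM in shPML of experiment 1, and at 18.4 and 25.5 CPM in experiment 2. The shPML libraries lay between the controls. The log2 ratio was -0.12 (counting interval -0.22 to -0.03) in experiment 1 and 0.47 (0.31 to 0.62) in experiment 2, so the experiments differed by more than counting error. With 1 library of each condition in each experiment, no test of that difference was possible. The blocked log2 fold change was 0.16 (SE 0.13, adjusted p = 0.42 from edgeR). ARSG shares 28.3% of the exon bases of WIPI1 on the opposite strand, and it was at 9.46, 6.97, 9.76 and 8.04 CPM in shCTRL 1, shCTRL 2, shPML 1 and shPML 2. The rise in experiment 2 rests on shPML replicate 2 and on a low control, and the part of the PTPRC and PECAM1 reads of that library in it was not tested.

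ATG7, the E1-like enzyme that activates both ATG12 and the ATG8 proteins, lies on chromosome 3 from 11272416 to 11557665. It was the gene with the most similar controls, at 20.3 and 19.7 CPM, and was at 34.4 CPM in shPML of experiment 1 and 24.5 CPM in shPML of experiment 2. Both shPML libraries were above both controls. The rise was 1.69 times in experiment 1 and 1.24 times in experiment 2, log2 ratios of 0.76 (counting interval 0.66 to 0.86) and 0.31 (0.16 to 0.47). Here the larger ratio came from experiment 1, the reverse of ULK1. With the block ATG7 was called higher, with a log2 fold change of 0.55 (SE 0.13, adjusted p = 0.00079 from edgeR). Without it the value was 0.56 (SE 0.21, adjusted p = 0.26). The last part of ATG7 runs against VGLL4 on the opposite strand, and the pair shares 1597 exon bases, 32.2% of the exon bases of ATG7. VGLL4, a cofactor of TEAD transcription factors, was at 28.5 and 37.6 CPM in shCTRL and at 59.5 and 75.1 CPM in shPML, log2 ratios of 1.06 and 1.00. The strand setting of the counting is not given in the sources used here, so whether reads of VGLL4 entered the count of ATG7 was not tested.

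The window of ATG7 on the plus strand (chr3:11272147-11272446, GRCh38.p14) is shown beside that of ULK1 because these were the genes called, again with capitals from the annotated start onward.
ATG7: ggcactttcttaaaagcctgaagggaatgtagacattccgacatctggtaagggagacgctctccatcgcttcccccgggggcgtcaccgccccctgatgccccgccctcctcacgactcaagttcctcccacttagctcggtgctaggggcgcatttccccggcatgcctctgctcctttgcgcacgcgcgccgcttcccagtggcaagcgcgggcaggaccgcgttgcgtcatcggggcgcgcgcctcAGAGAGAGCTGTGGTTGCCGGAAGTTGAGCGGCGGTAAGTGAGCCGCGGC

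ATG5, which forms the conjugate with ATG12 that guides ATG8 lipidation (chromosome 6, from 106045423 to 106325762), was at 65.7 and 61.0 CPM in shCTRL and at 70.3 and 61.0 CPM in shPML. The groups overlapped, and the conditions took 7.95% of the variance of its log2 levels against 84.0% for the experiments. Its blocked log2 fold change was 0.05 (SE 0.11, adjusted p = 0.80 from edgeR). The conjugation genes ATG7 and ATG5 thus had blocked differences of 0.55 and 0.05 on the log2 scale, and the difference between the genes was not tested.

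**Figure D2:**
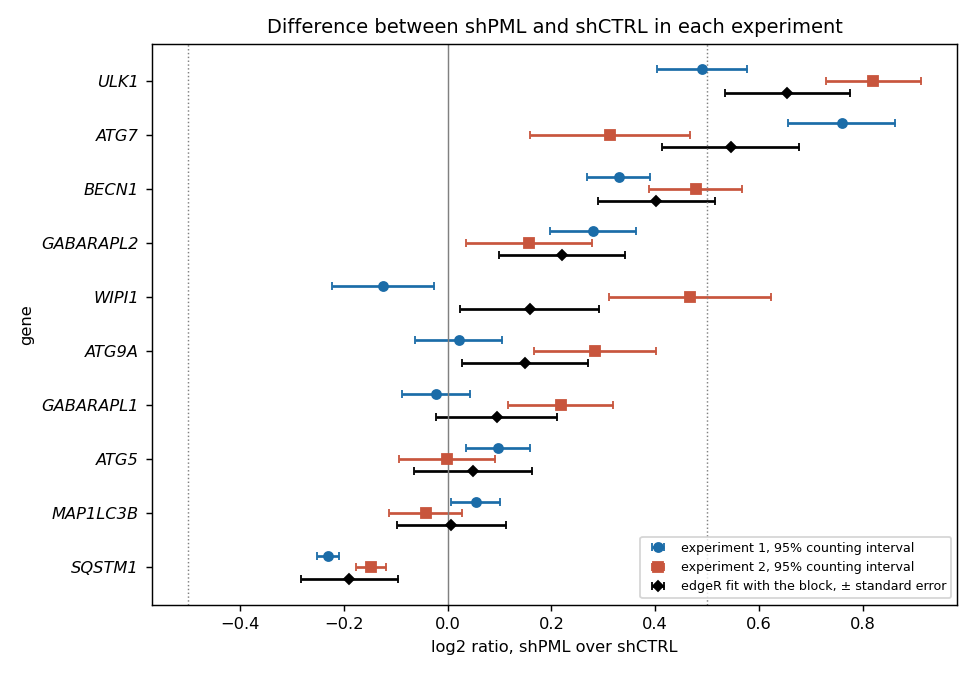
Log2 ratio of shPML over shCTRL for each gene in experiment 1 (circles) and experiment 2 (squares), with 95% intervals for counting error, and the edgeR fit with the block (diamonds) with its standard error. Dotted lines mark the fold threshold of 0.5 in both directions. ULK1 and ATG7 are the genes whose fit lies beyond it, and WIPI1 is on opposite sides of 0 in the experiments.

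The ATG8 proteins are ubiquitin-like proteins that coat the autophagosome membrane and bind receptors. MAP1LC3B, whose product LC3B is the usual protein marker of autophagosomes, lies on chromosome 16 from 87383953 to 87404779. It was at 117 and 106 CPM in shCTRL and at 122 and 103 CPM in shPML. The groups overlapped, and the experiments took 94.2% of the variance of its log2 levels. The log2 ratio was 0.05 (counting interval 0.01 to 0.10) in experiment 1 and -0.04 (-0.11 to 0.03) in experiment 2. The blocked value was 0.01 (SE 0.10, adjusted p = 0.97 from edgeR), the smallest of the 10 genes.

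GABARAPL1 (chromosome 12, from 10212836 to 10223128) was at 62.1 and 46.8 CPM in shCTRL and at 61.1 and 54.4 CPM in shPML, with overlapping groups. Its log2 ratio was -0.02 in experiment 1 and 0.22 in experiment 2, and the blocked value was 0.09 (SE 0.12, adjusted p = 0.61 from edgeR). GABARAPL2 (chromosome 16, from 75566375 to 75577881) was at 35.4 and 33.3 CPM in shCTRL and at 42.9 and 37.1 CPM in shPML, and both shPML libraries were above both controls. Its log2 ratio was 0.28 in experiment 1 and 0.16 in experiment 2. The blocked value of 0.22 (SE 0.12, adjusted p = 0.18 from edgeR) did not pass. Per exon length, MAP1LC3B made up 41.7% and 42.9% of the summed RPKM (CPM per kilobase of exon) of these 3 ATG8 genes in shCTRL, and 40.0% and 39.2% in shPML. GABARAPL2 made up 32.5% and 34.9% in shCTRL and 36.5% in each shPML library, and GABARAPL1 the remainder. Few reads were counted for near-identical copies: MAP1LC3B2 had from 5 to 63 counts, at most 0.722% of the count of MAP1LC3B, and GABARAPL3 at most 2 counts. Whether reads that match a gene and its copy equally were left out of both was not tested.

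Of 5 short motifs looked for on both strands of the 13 RefSeq windows of the 10 genes, 1 match was found, in the window of MAP1LC3B. It is TGACCAGGC, a match to TGACNNNGC (the antioxidant response element that NRF2 binds), which starts 46 bases before the annotated start and which 13.3% of all 35116 promoter windows also hold. MAP1LC3B is the gene with the smallest difference. The E box CACGTG, its extension TCACGTGA (the core of the CLEAR element that TFEB binds, and always also an E box), TGATGNAA (the CEBP-ATF response element) and GTAAACA (the FOXO site) had no match in the 13 windows. Of all windows, 7.26%, 0.98%, 3.62% and 3.42% hold them, in the same order. These are letters in short windows and not binding sites. The window of MAP1LC3B (chr16:87392086-87392385, plus strand, GRCh38.p14) is shown for the 1 match, with capitals from the annotated start onward.
MAP1LC3B: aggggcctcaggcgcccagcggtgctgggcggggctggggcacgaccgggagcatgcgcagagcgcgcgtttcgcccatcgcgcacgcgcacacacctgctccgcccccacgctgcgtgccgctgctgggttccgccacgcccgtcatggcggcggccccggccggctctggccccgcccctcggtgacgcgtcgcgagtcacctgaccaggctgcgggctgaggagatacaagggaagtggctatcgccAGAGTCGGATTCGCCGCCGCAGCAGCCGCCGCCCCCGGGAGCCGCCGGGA

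SQSTM1, the receptor p62 that binds ubiquitylated cargo and ATG8 proteins and also the NRF2 inhibitor KEAP1, lies on chromosome 5 from 179820885 to 179838078. It was the most abundant of the 10 genes, at 596 and 683 CPM in shCTRL and 508 and 616 CPM in shPML. Each shPML library was below the control of its own experiment, while shPML of experiment 2 lay above the control of experiment 1. The log2 ratio was -0.23 (counting interval -0.25 to -0.21) in experiment 1 and -0.15 (-0.18 to -0.12) in experiment 2, so shPML was at 0.85 and 0.90 times the control. The blocked value was -0.19 (SE 0.09, adjusted p = 0.12 from edgeR), and it did not pass. SQSTM1 shares 41.3% of its exon bases with MRNIP on the opposite strand, whose level was 33.7 and 29.4 CPM in shCTRL and 30.0 and 27.2 CPM in shPML.

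Per exon length the genes spanned a wide range in the controls, from 191 ± 18.4 RPKM for SQSTM1 to 4.03 ± 0.0868 RPKM for ATG7 (SD, n = 2). The lengths include exon bases shared with other genes: 43.5% for ATG9A, 41.3% for SQSTM1, 32.2% for ATG7, 28.3% for WIPI1 and 23.5% for BECN1. Whether the counting of reads in those bases changed the order of the genes was not tested. SQSTM1 was 5.92 times the next gene, MAP1LC3B (32.2 ± 2.33 RPKM), which was followed by BECN1 (27.9 ± 3.33), GABARAPL2 (25.6 ± 1.11) and GABARAPL1 (18.4 ± 3.66). ATG5 (13.4 ± 0.711 RPKM), WIPI1 (12.2 ± 3.58), ATG9A (8.41 ± 0.495) and ULK1 (7.30 ± 2.25) came next, before ATG7. BECN1 and GABARAPL2, ATG5 and WIPI1, and ATG9A and ULK1 were neighbours whose control libraries overlapped, and the other neighbours did not overlap. In shPML the order changed at BECN1, which reached 36.8 ± 1.74 RPKM beside 32.4 ± 3.86 for MAP1LC3B. Both BECN1 libraries (38.0 and 35.5 RPKM) lay above both MAP1LC3B libraries (35.2 and 29.7 RPKM), the nearest of them by a narrow margin. ULK1 reached 11.9 ± 5.44 RPKM in shPML, above the 9.35 ± 0.651 of ATG9A, and these overlapped too.

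The rest of the pathway was read from a list of 65 other autophagy genes sorted by role, of which 63 were tested. Without the block edgeR called 0 of them. Before adjustment 8 higher and 4 lower genes, 12 of the 63, had p below 0.05 in that fit, beside 17.9% of all genes. DESeq2 without the block called 3 higher and 1 lower, beside 4.14% and 6.44% of all genes. These counts without the block are near or below the shares over all genes. With the block edgeR called 8 higher and 3 lower, against 8.57% of all genes higher and 10.5% lower. DESeq2 with the block called 7 higher and 3 lower, against 1109 higher and 1386 lower of the 16516 genes fitted. The median blocked log2 fold change of the 63 genes was 0.11, beside 0.00423 over all genes tested. In both experiments 35 of the 63 were higher and 18 lower, beside 37.2% and 37.1% of all genes. In the blocked fits and over both experiments, the share of the list that was higher was above that of all genes. The share that was lower was below it. Whether the list differs from all genes was not tested, and the list was chosen with earlier results of these data known.

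Around ULK1 the subunits of its own complex were not called. RB1CC1 (FIP200), the scaffold of that complex, differed by 0.36 with the block (adjusted p = 0.00993 from edgeR), under the fold threshold, and ATG13 by -0.24 (adjusted p = 0.11). In the signalling upstream of ULK1, TSC1, part of the complex that restrains mTORC1, rose from 43.7 and 31.3 CPM in shCTRL to 62.6 and 59.1 CPM in shPML (blocked log2 fold change 0.71, adjusted p = 3.0e-06 from edgeR). Its log2 ratio was 0.52 in experiment 1 and 0.92 in experiment 2. PRKAA2, a catalytic subunit of AMPK, fell from 52.3 and 54.6 CPM to 35.3 and 36.0 CPM (-0.58, adjusted p = 7.2e-05 from edgeR). The libraries of shCTRL and shPML did not overlap in either gene.

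In the complex of BECN1, 1 of 7 genes was called: ATG14, the subunit that directs the lipid kinase to autophagosome formation, rose from 22.7 and 21.9 CPM to 33.4 and 33.6 CPM (blocked log2 fold change 0.59, adjusted p = 0.00015 from edgeR). Among the genes of membrane growth, ATG2A, a lipid transfer protein that works with ATG9A, fell from 48.7 and 70.8 CPM to 27.2 and 50.2 CPM (-0.67, adjusted p = 8.5e-06 from edgeR). Its groups overlapped, since shPML of experiment 2 (50.2 CPM) was above the control of experiment 1 (48.7 CPM). Among the relatives of WIPI1, WDR45 (WIPI4) rose from 19.8 and 17.5 CPM to 28.7 and 28.5 CPM (0.61, adjusted p = 0.00013 from edgeR). AC231657.3 shares 30.1% of the exon bases of WDR45 on the same strand and had 0 counts in every library. Whether shared reads were left out of the count of WDR45 was not tested.

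Of the 9 other conjugation genes, ATG16L2 was called higher, at 27.4 and 25.8 CPM in shCTRL and 36.9 and 42.8 CPM in shPML (0.58, adjusted p = 0.00017 from edgeR), while ATG16L1 was not called (0.13, adjusted p = 0.47). The log2 ratio of ATG16L2 was 0.43 in experiment 1, under the fold threshold, and 0.73 in experiment 2, which uses shPML replicate 2. The part of the PTPRC and PECAM1 reads of that library in it was not tested. FCHSD2 shares 21.2% of the exon bases of ATG16L2 on the opposite strand. GABARAP, of the ATG8 family, was called higher at a low level, with 2.79 and 1.42 CPM in shCTRL and 4.02 and 3.27 CPM in shPML (0.84, adjusted p = 0.0475 from edgeR). Its log2 ratio was 0.53 in experiment 1 and 1.21 in experiment 2. DESeq2 with the block did not call GABARAP. GABARAP shares 35.4% of its exon bases with AC120057.2 on the same strand and 12.8% with AC120057.3 on the other. AC120057.2 had 0 counts in every library and AC120057.3 from 1 to 92. Reads in the bases shared with AC120057.2 could not be assigned to either gene by position alone. Whether such reads were left out of the count of GABARAP was not tested. Of the 16 other cargo receptors, 2 were called higher and 1 lower. NBR1, the receptor closest to SQSTM1 in domain layout, rose from 85.2 and 64.8 CPM to 127 and 102 CPM (0.61, adjusted p = 5.6e-06 from edgeR), in contrast to the -0.19 of SQSTM1, a difference between genes that was not tested. RETREG1 (FAM134B), a receptor for the endoplasmic reticulum, rose by 0.57, and TEX264, another receptor for the same organelle, fell by 0.55 on the log2 scale (adjusted p = 0.0017 and 0.00024 from edgeR with the block).

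In the group of autophagosome-lysosome fusion, TECPR1, a tethering factor on lysosomes, had the largest change of the genes called. It rose from 23.9 and 30.3 CPM in shCTRL to 48.9 and 67.2 CPM in shPML, 2.13 times with the block (log2 fold change 1.09, SE 0.12, adjusted p = 5.5e-11 from edgeR), and its value without the block was 1.10 (adjusted p = 0.0975). RAB7A, the GTPase of late endosomes and lysosomes, differed by -0.50 with the block (adjusted p = 4.7e-05 from edgeR) and fell just short of the fold threshold.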

How the data were processed

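RNA of 4 libraries was analysed from the raw counts per gene that the authors deposited, whole numbers without normalization. Per the labels and methods, stranded mRNA libraries were trimmed with Trimmomatic 0.39, mapped to GRCh38 by STAR, and reads per gene came from featureCounts 1.6.4; the number of the Gencode release and the strand setting are not given in the sources used here. The column of each condition without a number was taken as replicate 1, since the other column is named as replicate 2. The deposited record states that labels of a pair of samples had been exchanged; the labels as corrected there define the groups.

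Counts were fitted over all genes with edgeR 4.0.16 (filterByExpr, TMM, quasi-likelihood test, Benjamini-Hochberg adjustment) in R 4.3.3 with limma 3.58.1, without a block. Alternatives were the replicate block, DESeq2 1.42.0, RLE, other filters and fold thresholds, and each library left out. Standard errors follow from the F statistic. Tables used pandas 2.3.3, scipy 1.17.1 and Python 3.11.15. CPM and RPKM use TMM-scaled library sizes and the exon length in the deposited counts. No permutation test was run, as 0.333 is the smallest two-sided exact p that 2 libraries per group allow. P-values measure the spread between these libraries, estimated with information shared over all genes. With 2 libraries per group and a block, little of a gene's own spread is left to measure. The blocked standard errors and p-values therefore rest mostly on the shared estimate. The methods describe 2 experiments with independent infections, which were taken as the replicate numbers. Deviations of the replicate 1 libraries from their group means correlated at 0.546 over genes (not independent of each other), while the common dispersion was 0.0813 without and 0.0137 with the block. In simulated data 200 genes were changed by a log2 fold of 1. There edgeR called 0 of them without and 195 with the block (10 unchanged genes called), over 16187 genes. DESeq2 called 0 without and 173 with it. Each simulated gene was given a shift between experiments and the dispersion of the blocked fit, so the result favoured the block by design. The simulated fold was larger than the fitted fold of any of the 10 genes, and smaller folds were not simulated.

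Named are the 10 genes, PML, up to 3 called genes for each role of the other list, and exon-overlapping neighbours; RB1CC1, ATG13, ATG16L1, RAB7A and the near-identical copies were added after their values were seen. The members, lists and motifs were chosen with earlier results of these data known. Sequences are from RefSeq (GRCh38.p14); all 10 genes matched.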

Additional observations from a re-analysis of the deposited data

How the results depend on the processing

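In edgeR, the replicate block moved the genes called higher from 0 to 2 of the 10 and from 0 to 8 of the other autophagy genes, and those called lower among the latter from 0 to 3. DESeq2 gave 0 and 3 higher and 1 lower without the block, and 2, 7 and 3 with it. With no filter on low counts, 1 of the 10 genes (ULK1, adjusted p = 0.0175) and 3 other autophagy genes were called higher and 1 lower by edgeR. That fit tested 30093 genes. RLE, at least 10 counts in every library and the other fold thresholds called none. The fits with RLE, other filters, other fold thresholds or a library left out had no block. They therefore do not bear on the calls made with the block. Leaving out 1 library, with the lone library of its group taken to vary like the others, gave 0 of the 10 in either direction, 0 to 1 other genes higher (MAP1LC3A, without shPML replicate 1) and 0 lower. ULK1 ranged from 0.14 (without shPML replicate 2) to 1.10 (without shPML replicate 1), ATG7 from 0.28 to 0.78, BECN1 from 0.28 to 0.54 and SQSTM1 from -0.33 to -0.06. WIPI1 ranged from -0.14 to 0.49, ATG5 from -0.065 to 0.15, MAP1LC3B from -0.13 to 0.13 and GABARAPL1 from -0.11 to 0.32, so these 4 changed sign. Leaving out a library without a block breaks the pairing within experiments, so all these ranges also hold the difference between the experiments. The median of the 10 genes ranged from 0.04 to 0.30. The block cannot be fitted with a test once a library is left out. Over all genes, 13 were called higher and 55 lower by the fit without the block, 1415 and 1735 with it, 577 and 898 by DESeq2 without and 1109 and 1386 with it, 0 and 0 with RLE (smallest adjusted p 0.0501), 891 and 946 with no filter, and 53 and 144 with at least 10 counts. The cause of these differences was not tested.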

Other observations

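MAP1LC3A, an ATG8 gene removed by the low-count filter, had 4 and 0 counts in the shCTRL libraries, 1 count in shPML replicate 1 and 173 counts in shPML replicate 2. Its reads thus came almost entirely from the library that also held PTPRC and PECAM1 reads. ATG9B, the other autophagy gene that did not pass, had 12 and 8 counts in shCTRL and 2 and 0 in shPML. These genes were looked at after their values were seen.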
